A study of Homo sapiens with 6 samples.

Results

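The 34 genes described here encode proteins of G2 phase and mitosis other than kinesins. The rule that picked their rows used gene symbols and no measured value, but the list of symbols was chosen with earlier results of these data known. All 34 were found among the 19610 rows of the count table, and all 34 passed the filter on low counts that left 12196 genes for testing. The cells were SH-SY5Y, an established human neuroblastoma line with adrenergic features, labelled wild type. One group received SGC707, which inhibits PRMT3, an enzyme that methylates arginines (3 libraries), and the other received the solvent DMSO (3 libraries). Values per library are given in the order of their letters, A, B, C, in normalised CPM, which is CPM (reads scaled by library size) after TMM normalisation in edgeR. The sources used here state neither concentration nor exposure time, and no label says that the libraries came from separate cultures, so the p-values describe the spread between these libraries.

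Entry into mitosis is driven by the kinase CDK1 bound to B-type cyclins, and exit begins when the anaphase-promoting complex (APC/C) marks cyclin B and securin for destruction. Between these points kinetochores capture spindle microtubules while the spindle checkpoint holds the APC/C back. Most of these genes are transcribed in late S phase, G2 and mitosis, through the MuvB complex with the factors B-MYB and FOXM1, and their transcripts are low in G1. In RNA from a whole culture, fewer cells in G2 and mitosis and less RNA per such cell cannot be told apart.

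Total counts were 11658728 to 12127187 in SGC707 libraries and 11863696 to 15437602 in DMSO libraries. Mitochondrially encoded transcripts took 24.3% to 37.7% of counts with SGC707 and 46.7% to 60.7% with DMSO, which left 7559322 to 8999358 and 6066305 to 6327895 counts on nuclear genes. The library SGC707 C stood apart from the others. Over 11583 nuclear genes, its deviations from the gene means ran against transcript GC content (Spearman correlation -0.77 across genes), whereas those of SGC707 A and B ran with it (0.53 and 0.34) and those of the DMSO libraries lay between -0.13 and 0.23. A chi-square comparison of counts gave 11.9 per degree of freedom between SGC707 A and B, 80.6 to 103.6 between either of them and SGC707 C, and 24.2 to 60.15 within DMSO. It included the mitochondrially encoded genes and scaled by library totals, so differences in the mitochondrial share enter it. Of 9 adrenergic markers 8 were expressed, with summed levels of 1985 to 2622 normalised CPM with SGC707 and 2836 to 3749 with DMSO, and the tyrosine hydroxylase gene TH was at 0 in all 6 libraries. Summed mesenchymal and Schwann-like markers stood at 158.9 to 177.4 and 152.6 to 194.2, most of it from VIM, with SOX10 at 0. Epithelial markers summed to 3.34 at most and blood markers to 1.25 at most, with PTPRC and CD3E at 0. The part of these shifts in the values below was not tested.

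The promoters of these genes show what the members share by sequence. The cell cycle genes homology region (CHR), bound by MuvB, was searched as TTTGAA or TTCGAA, and the CCAAT box, bound by NF-Y, as CCAAT, both on either strand (TTCGAA reads the same on both), in RefSeq windows of 250 bases before to 50 bases after a transcript start (GRCh38.p14). Of the members, 27 had at least 1 window, 36 windows in all, and AURKA, BIRC5, BUB3, FOXM1, TPX2, TTK and UBE2C had no entry. A CHR match lay in 75.0% of member windows (24 of 27 genes), against 16.4% of all 35116 windows and 11.5% of windows of tested genes. A CCAAT match lay in 75.0% of member windows, against 34.6% of all windows, and both matches lay in 61.1% against 6.38%. Windows of 1 gene can overlap, and a match is a description of letters only.
Below are the bases 110 to 11 upstream of the start of 7 members, with CHR and CCAAT letters in capitals (ATTGG is CCAAT on the other strand). The first 4 encode cyclins B2 and B1, the polo-like kinase and the mitotic activator of the APC/C, and the last 3 are among the 5 members whose call changed when 1 library was left out.
CCNB2: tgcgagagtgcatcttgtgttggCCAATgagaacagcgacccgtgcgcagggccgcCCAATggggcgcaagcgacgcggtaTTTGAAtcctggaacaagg
CCNB1: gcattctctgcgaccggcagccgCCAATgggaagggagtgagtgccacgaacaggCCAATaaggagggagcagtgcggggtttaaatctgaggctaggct
PLK1: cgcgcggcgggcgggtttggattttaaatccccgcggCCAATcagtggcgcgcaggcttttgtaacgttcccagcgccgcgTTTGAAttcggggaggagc
CDC20: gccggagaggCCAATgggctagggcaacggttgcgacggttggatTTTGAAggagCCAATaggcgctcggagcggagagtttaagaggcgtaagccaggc
PRC1: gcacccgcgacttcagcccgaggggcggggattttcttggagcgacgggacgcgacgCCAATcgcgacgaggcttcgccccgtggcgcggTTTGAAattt
HMMR: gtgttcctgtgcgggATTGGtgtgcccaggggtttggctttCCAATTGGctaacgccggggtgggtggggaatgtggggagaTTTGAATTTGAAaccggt
ASPM: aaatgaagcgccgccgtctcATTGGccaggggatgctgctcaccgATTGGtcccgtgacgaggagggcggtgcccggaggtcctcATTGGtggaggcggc
These stretches lie at chr15:59105036-59105135 (plus strand) for CCNB2, chr5:69167040-69167139 (plus) for CCNB1, chr16:23678779-23678878 (plus) for PLK1, chr1:43358871-43358970 (plus) for CDC20, chr15:90994546-90994645 (minus) for PRC1, chr5:163460522-163460621 (plus) for HMMR and chr1:197146680-197146779 (minus) for ASPM. In the stretch of CCNB2, 2 CCAAT matches come before 1 CHR match, whose first base lay 29 bases upstream of the start, as in PLK1. The CHR match of ASPM, on the other strand, begins 113 bases upstream and runs across the first edge of the stretch printed, so its last bases stand there in lower case. CCNB1 carried 2 CCAAT matches and no match to TTTGAA or TTCGAA in its window. CCNA2 and AURKB were the other members with a window and no match to these letters. Other forms of the CHR were not searched, so the lack of a match does not mean that these promoters lack a CHR.

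**Figure D1:**
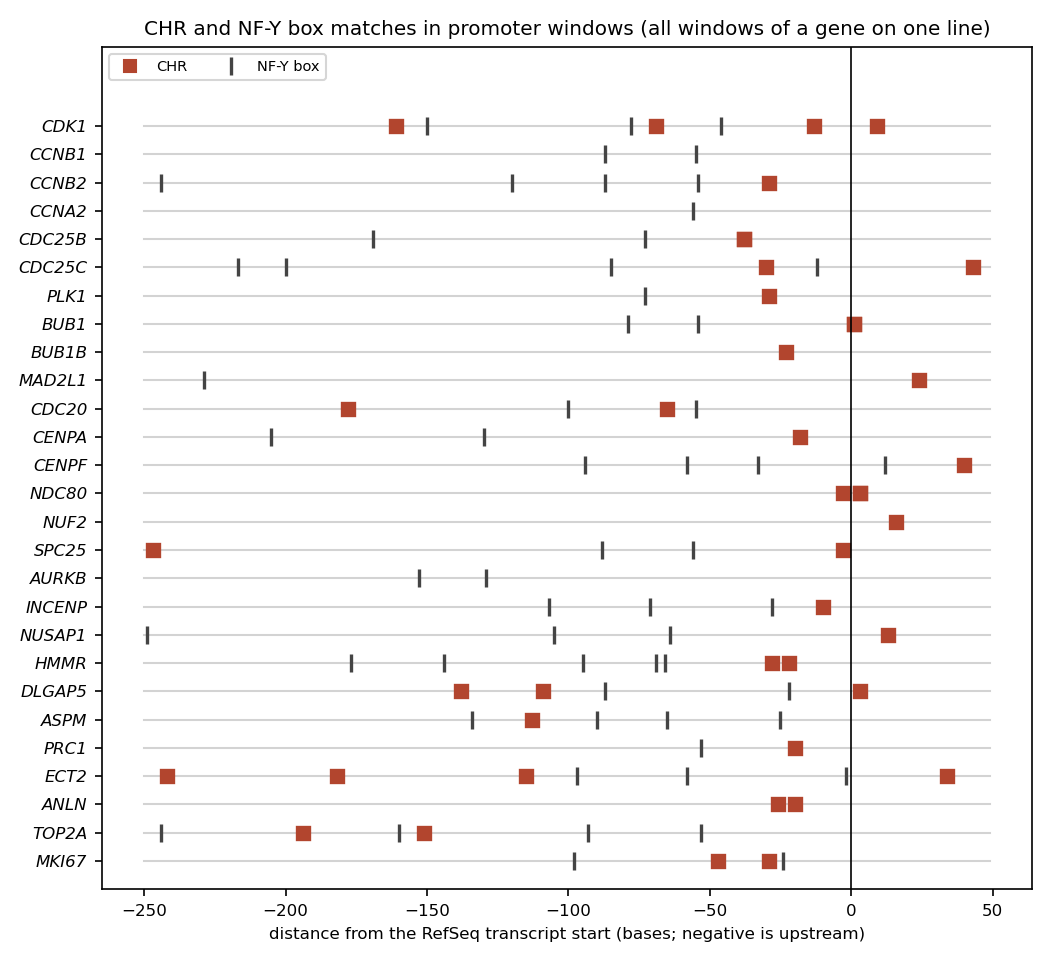
Matches to the CHR (squares) and to the NF-Y box (vertical marks) on either strand, by distance in bases from the RefSeq transcript start, for the 27 members with a window. Matches to the CHR letters searched (TTTGAA or TTCGAA) are present in 24 of the 27 genes, and CCNB1, CCNA2 and AURKB have none.

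The comparison of SGC707 with DMSO asks which transcripts differ under the inhibitor, and no G2/M gene passed the test. In edgeR 0 of 34 members had an adjusted p under 0.05, where 0.0246% of all tested genes did (0.0082% higher and 0.0164% lower with SGC707). DESeq2 also called 0 of the 34, where it called 2.39% of the 12052 genes to which it gave an adjusted p, and limma-voom called 0, where it called 0.0164% of all tested genes. Log2 fold changes (SGC707 over DMSO) were positive for 17 members and negative for 17, where 47.2% of all tested genes were negative, and ran from -0.63 for FOXM1 to 0.62 for MAD2L1, with a median of -0.01 against 0.02 over all tested genes. At an unadjusted p under 0.05 there were 4 members (11.8%), MAD2L1 and CDK1 higher and INCENP and NUSAP1 lower, against 12.8% of all tested genes (5.62% higher and 7.13% lower). The 95% interval of the log2 fold change lay inside -1 to 1 for 29 members, so a 2-fold change lay outside it for these. It reached past 1 in size for FOXM1, MKI67, ANLN, NUSAP1 and MAD2L1.

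The groups did not overlap in normalised CPM for 7 members, or 20.6%, which equals the 20.6% of all tested genes. CDK1, BUB3 and MAD2L1 lay higher in all 3 SGC707 libraries (8.82% of members against 10.8% of tested genes), and AURKB, INCENP, NUSAP1 and PRC1 lay lower (11.8% against 9.78%). The summed level of the 34 members was 2488, 2810 and 3968 normalised CPM with SGC707, against 3377, 3492 and 3191 with DMSO. The DMSO sums lay close together, while those of SGC707 A and B lay below them and that of SGC707 C above them. The most abundant members, CENPF and TOP2A, weigh most in this sum. Of the 34 members, 9 had this arrangement themselves (26.5%, against 8.96% of tested genes). CDC20 and UBE2C had the reverse, for which the share of tested genes was not counted.

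**Figure D2:**
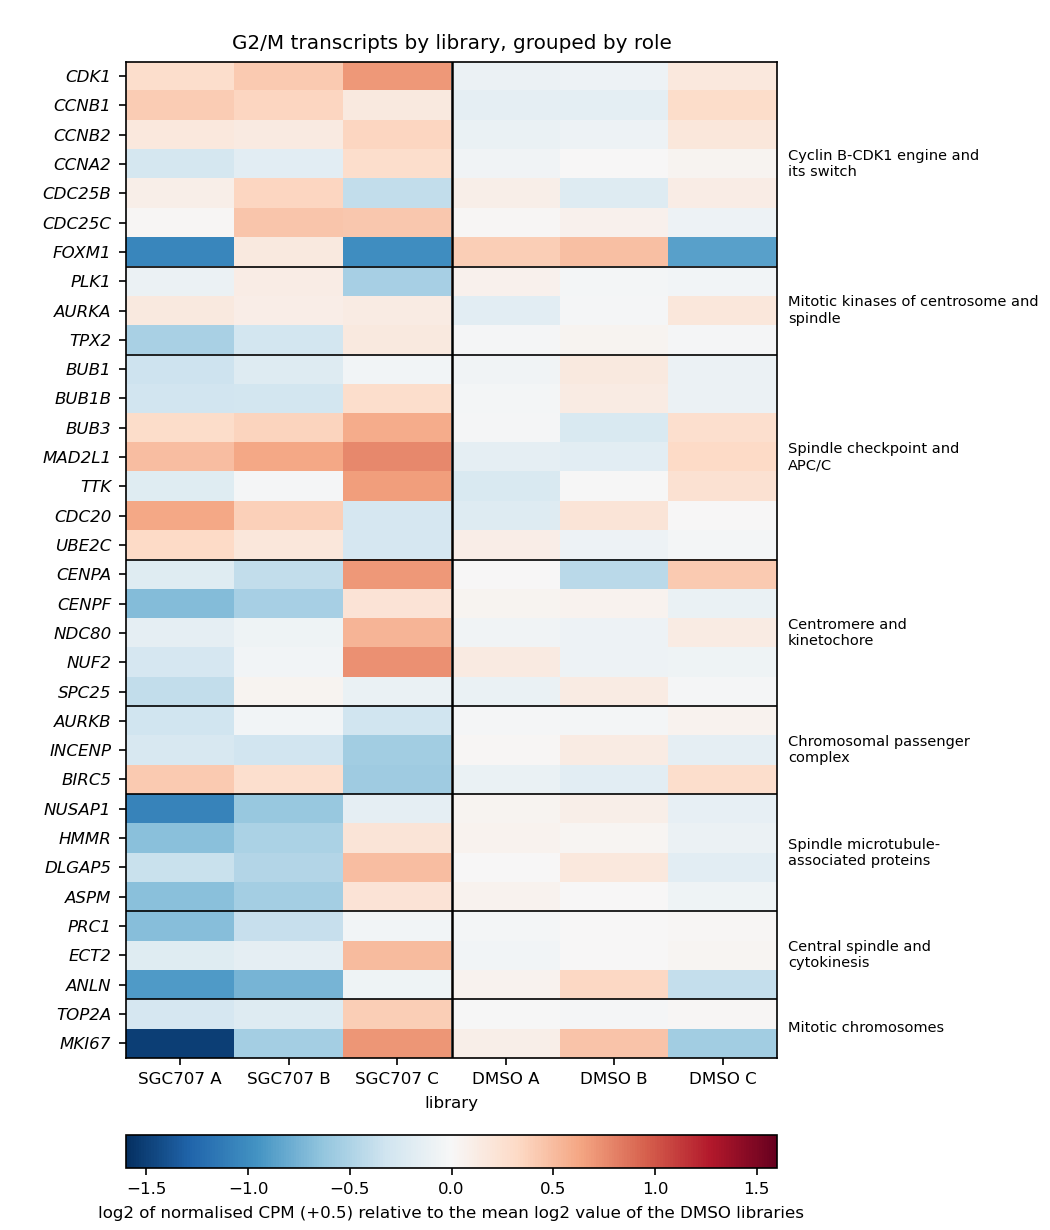
Log2 normalised CPM of each member in each library relative to the mean of the 3 DMSO libraries, with genes down the page by role and libraries across. SGC707 C is the highest of the 6 libraries for 18 members, and MKI67 in SGC707 A has the lowest value.

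Among the 7 genes of the CDK1 engine and its switch, 5 had positive and 2 negative log2 fold changes, and none passed in edgeR. CDK1, the kinase that drives mitotic entry (GRCh38 chromosome 10, 60778331 to 60794852), stood at 65.4, 72.6 and 88.0 normalised CPM with SGC707, against 50.6, 50.9 and 60.95 with DMSO. Every SGC707 library lay above every DMSO library, with the nearest pair 65.4 and 60.95. Its log2 fold change was 0.48 (standard error, SE, 0.17, 95% interval 0.08 to 0.87, adjusted p = 0.315 in edgeR). CCNB1, the cyclin B1 gene (chromosome 5, 69167010 to 69178245), stood at 55.65, 53.1 and 46.5 normalised CPM with SGC707, against 37.9, 37.5 and 51.2 with DMSO. DMSO C lay within the SGC707 values, so the groups overlapped, and the log2 fold change was 0.29 (SE 0.18, adjusted p = 0.529 in edgeR).

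CCNB2, encoding cyclin B2, had a log2 fold change of 0.22, and CDC25C, a phosphatase that removes inhibitory phosphates from CDK1, had 0.33 at the lowest counts of this group (67 to 142 per library). CDC25B, the related phosphatase of early mitotic entry, stood at 0.04 and CCNA2, encoding cyclin A2, at -0.04. FOXM1, the transcription factor that activates many genes of this programme, varied within both groups. It stood at 37.8, 87.35 and 39.1 normalised CPM with SGC707, against 102.3, 109.4 and 42.5 with DMSO. SGC707 B sat with DMSO A and B, and DMSO C sat with SGC707 A and C, and the log2 fold change was -0.63 (95% interval -1.63 to 0.37, adjusted p = 0.579 in edgeR). FOXM1 overlaps ITFG2 and RHNO1 on the opposite strand, and without a stated strand setting their reads cannot be told apart.

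The kinases of the centrosome and spindle did not pass either. TPX2, which activates Aurora A and nucleates spindle microtubules, stood at 121.9, 142.2 and 195.5 normalised CPM with SGC707, against 172.3, 179.5 and 172.3 with DMSO. SGC707 A and B lay below the narrow DMSO range and SGC707 C above it, with a log2 fold change of -0.19 (SE 0.19, adjusted p = 0.706 in edgeR). AURKA, the Aurora A kinase gene, stood at 23.9 ± 0.417 normalised CPM with SGC707 and 21.9 ± 2.77 with DMSO (SD, n = 3 each), a log2 fold change of 0.12. PLK1, the polo-like kinase of centrosome maturation, stood at 33.4 ± 7.41 with SGC707 and 37.0 ± 1.496 with DMSO (SD, n = 3 each), a log2 fold change of -0.15.

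Of the 7 genes of the spindle checkpoint and the APC/C, 5 had positive log2 fold changes, MAD2L1 and BUB3 among them. MAD2L1 (chromosome 4, 120055608 to 120067074) encodes MAD2, the checkpoint protein that binds CDC20 at unattached kinetochores. It stood at 92.3, 100.6 and 111.5 normalised CPM with SGC707, against 59.1, 57.9 and 81.5 with DMSO. All SGC707 libraries lay above all DMSO libraries, and the log2 fold change of 0.62 (SE 0.18, 95% interval 0.20 to 1.03) had the smallest p of all members (adjusted p = 0.266 in edgeR). MAD2L1 overlaps an annotated gene on the opposite strand. BUB3, which docks checkpoint proteins at kinetochores, stood at 111.9, 116.9 and 137.6 normalised CPM with SGC707, against 89.75, 76.8 and 110.1 with DMSO. The groups did not overlap, by a margin of 111.9 against 110.1, and the log2 fold change was 0.40 (SE 0.18, adjusted p = 0.392 in edgeR).

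The checkpoint kinase BUB1 (-0.20) and its relative BUB1B (-0.08), which encodes BUBR1, had negative log2 fold changes, and the checkpoint kinase TTK had 0.19. CDC20, the activator of the APC/C in mitosis, stood at 33.4, 28.4 and 17.85 normalised CPM with SGC707, against 18.7, 24.9 and 21.6 with DMSO. SGC707 A and B lay above all DMSO libraries and SGC707 C below them, a log2 fold change of 0.29 (adjusted p = 0.670 in edgeR). UBE2C, the ubiquitin-conjugating enzyme of the APC/C, showed the same arrangement, at 50.1, 45.5 and 33.2 with SGC707, against 43.3, 37.8 and 39.25 with DMSO (log2 fold change 0.10). Both have pseudogenes in GENCODE (CDC20P1, and 4 for UBE2C), so some of their reads can be shared.

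**Figure D3:**
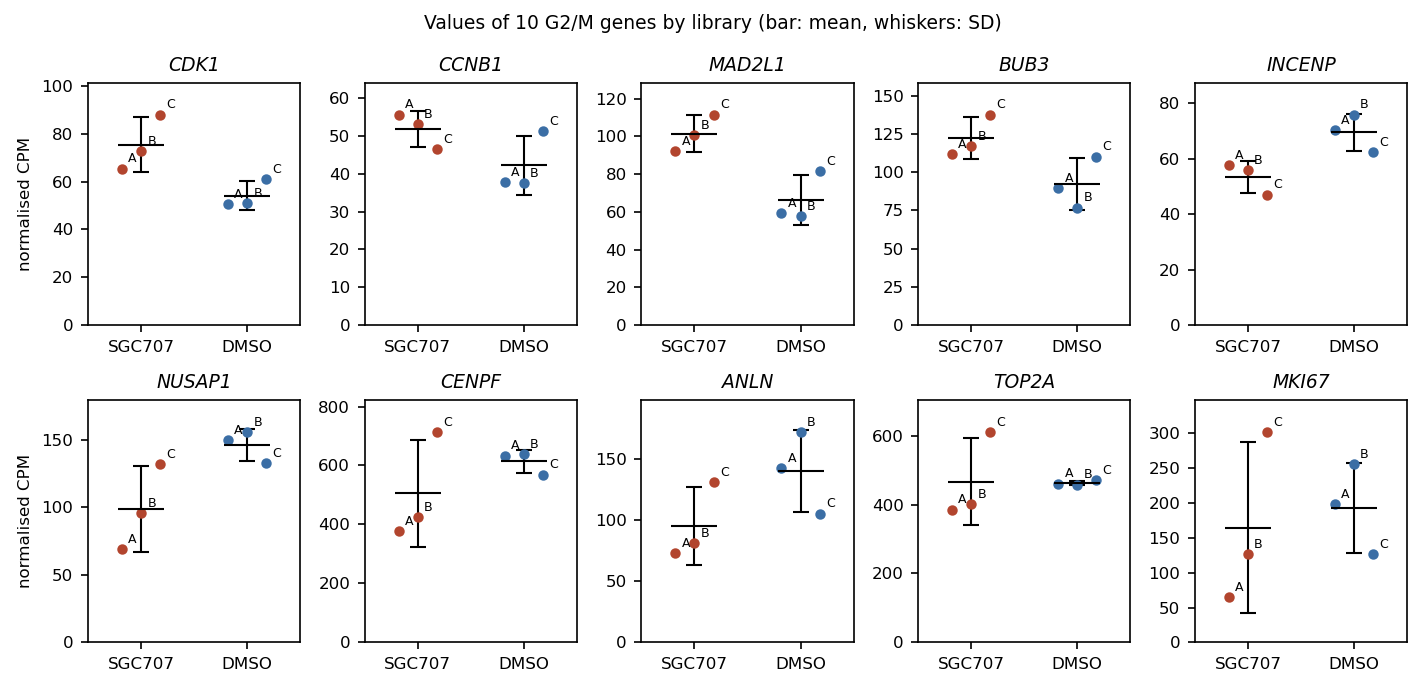
Normalised CPM of 10 members in each library (points lettered A to C), with the mean (bar) and SD (whiskers) of 3 libraries per treatment, SGC707 on the left and DMSO on the right of each panel. CDK1, MAD2L1 and BUB3 lie higher in every SGC707 library, INCENP and NUSAP1 lower, and SGC707 C is the highest SGC707 library for CENPF, ANLN, TOP2A and MKI67.

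Centromere and kinetochore genes gave log2 fold changes from -0.28 to 0.20. CENPF (chromosome 1, 214603195 to 214664588), a large coiled-coil protein of the outer kinetochore, had the highest count of any member in a library, 9163 in SGC707 C. It stood at 377.5, 425.7 and 714.1 normalised CPM with SGC707, against 633.6, 639.5 and 569.2 with DMSO. SGC707 A and B lay below all DMSO libraries and SGC707 C above them, and the log2 fold change was -0.28 (SE 0.24, adjusted p = 0.660 in edgeR). SPC25, a subunit of the NDC80 complex that binds microtubules, stood at 15.65, 21.3 and 19.2 normalised CPM with SGC707, against 19.1, 22.7 and 20.35 with DMSO, a log2 fold change of -0.15 (adjusted p = 0.779 in edgeR). Its partners NDC80 (0.14) and NUF2 (0.20) had positive values, and in both SGC707 C was the highest of the 6 libraries. CENPA, the histone H3 variant of centromeres, stood at 0.07 with the widest interval of this group (-0.79 to 0.93) at 57 to 163 counts per library.

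The chromosomal passenger complex corrects wrong attachments and later guides cytokinesis. INCENP (chromosome 11, 62123973 to 62153163), its scaffold, stood at 57.7, 55.8 and 47.0 normalised CPM with SGC707, against 70.2, 75.9 and 62.4 with DMSO. All SGC707 libraries lay below all DMSO libraries, with a log2 fold change of -0.38 (SE 0.16, 95% interval -0.74 to -0.02, adjusted p = 0.374 in edgeR). AURKB, its kinase, also had groups that did not overlap, at 13.7, 16.6 and 13.6 with SGC707 and 17.0, 16.7 and 17.8 with DMSO, but the nearest values were 16.6 and 16.7, and its log2 fold change was -0.23. BIRC5, encoding survivin, had a log2 fold change of 0.09, at 18.3, 16.35 and 8.96 with SGC707, against 12.5, 11.9 and 16.6 with DMSO.

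All 4 spindle microtubule-associated genes had negative log2 fold changes, and none passed in edgeR. NUSAP1 (chromosome 15, 41332694 to 41381050), which bundles spindle microtubules near chromosomes, stood at 69.0, 95.3 and 131.9 normalised CPM with SGC707, against 149.5, 155.7 and 132.4 with DMSO. The groups did not overlap, with SGC707 C 131.9 next to DMSO C 132.4, and the log2 fold change was -0.56 (SE 0.23, 95% interval -1.10 to -0.03, adjusted p = 0.374 in edgeR). HMMR, a spindle assembly factor, stood at 61.8, 69.2 and 113.5 with SGC707, against 102.3, 100.5 and 92.4 with DMSO, a log2 fold change of -0.27 (adjusted p = 0.660 in edgeR). ASPM, a spindle pole protein, had -0.28 and DLGAP5, which stabilises kinetochore fibres, had -0.05. Both lay below the DMSO values in SGC707 A and B and above them in SGC707 C.

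Of the genes of the central spindle and cytokinesis, ANLN, the actin-binding scaffold of the cleavage furrow, stood at 72.9, 81.5 and 131.5 normalised CPM with SGC707, against 142.5, 172.5 and 105.4 with DMSO. SGC707 C lay within the DMSO values, and the log2 fold change was -0.56 (SE 0.27, adjusted p = 0.441 in edgeR). PRC1, the protein that bundles antiparallel microtubules in the midzone, stood at 73.96, 92.6 and 116.0 with SGC707, against 116.7, 120.1 and 121.2 with DMSO, a log2 fold change of -0.34 (SE 0.18, adjusted p = 0.481 in edgeR). ECT2, the exchange factor that activates RhoA at the cell equator, had 0.09. ANLN, ECT2, HMMR, CENPF and PRC1 each overlap an annotated gene on the opposite strand, and NUSAP1, ASPM and PRC1 on the same strand. These are not all the members with an overlap.

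Of the 2 genes of mitotic chromosomes, TOP2A, which encodes topoisomerase II alpha, had the narrower DMSO values. It stood at 385.3, 402.1 and 611.0 normalised CPM with SGC707, against 460.9, 458.1 and 470.1 with DMSO, a log2 fold change of 0.01 (95% interval -0.44 to 0.46, adjusted p = 0.991 in edgeR). MKI67 (chromosome 10, 128096659 to 128126385), the Ki-67 proliferation marker that coats chromosomes, stood at 65.02, 126.9 and 302.2 with SGC707, against 198.1, 255.4 and 126.3 with DMSO. It was the most variable member, with the highest library 4.65 times the lowest, and both ends of that range were SGC707 libraries. Its log2 fold change was -0.23 (SE 0.51, 95% interval -1.42 to 0.95, adjusted p = 0.886 in edgeR). The highest library was at least 2-fold above the lowest for 7 members, and for 39.8% of all tested genes.

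Per kilobase of the longest protein-coding transcript, TOP2A was the most abundant member, at 80.95 normalised CPM per kilobase with SGC707 and 80.4 with DMSO. NUSAP1 (41.0 and 60.55), CENPF (49.1 and 59.6), TPX2 (42.5 and 48.5) and UBE2C (47.0 and 43.9) followed in the order of the DMSO level. CDC25C was the lowest, at 3.80 with SGC707 and 3.02 with DMSO, below BIRC5 (5.36 and 5.04) and CENPA (5.76 and 5.45). MKI67, with the longest transcript at 12678 bases, stood at 13.0 and 15.2 on this scale. Where the cells use a shorter transcript than the longest one annotated, this level is too low.

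The libraries with the highest and lowest values were unevenly spread over the members. Member transcripts were poor in G and C, with a median GC content of 42.9% against 48.4% over tested nuclear genes. The highest of the 6 libraries was SGC707 C for 18 members (52.9%), against 31.2% of tested genes, and the lowest was SGC707 A for 17 of the 34, against 20.3%. For 9 members (26.5%, against 8.96% of tested genes) SGC707 A and B lay below all DMSO libraries while SGC707 C lay above all of them. These were CCNA2, TPX2, BUB1B, CENPF, HMMR, DLGAP5, ASPM, ECT2 and TOP2A.

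In SGC707 C, the 17 members at or below the median GC content had a median log2 ratio to the DMSO mean of 0.40, and the 17 above it had -0.04. Tested nuclear genes at or below and above the same GC content had 0.35 and -0.20 in that library. In SGC707 A the medians were -0.28 and -0.09 for members and -0.13 and 0.10 for tested genes, and in SGC707 B -0.17 and 0.11 for members and -0.05 and 0.06 for tested genes. Across the 34 members, the log2 ratio of SGC707 C to the DMSO mean had a Pearson correlation of -0.73 with GC content (Spearman -0.62; -0.68 over 12156 tested nuclear genes), while SGC707 A and B had Pearson correlations of 0.13 and 0.26. Over the tested nuclear genes SGC707 A and B had Spearman correlations of 0.32 and 0.15 with GC content (0.17 and 0.21 over members). Transcript length went with lower values in SGC707 A and B (Pearson -0.43 and -0.37 with log2 length) and not in SGC707 C (0.23). Spearman correlations with length in SGC707 A, B and C were -0.37, -0.41 and 0.21 over members. Over tested nuclear genes they had the same signs, at -0.25, -0.16 and 0.16. These correlations are across genes that share libraries, so they describe these libraries only. Fold changes after a correction for GC content and length are given with the other scalings.

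**Figure D4:**
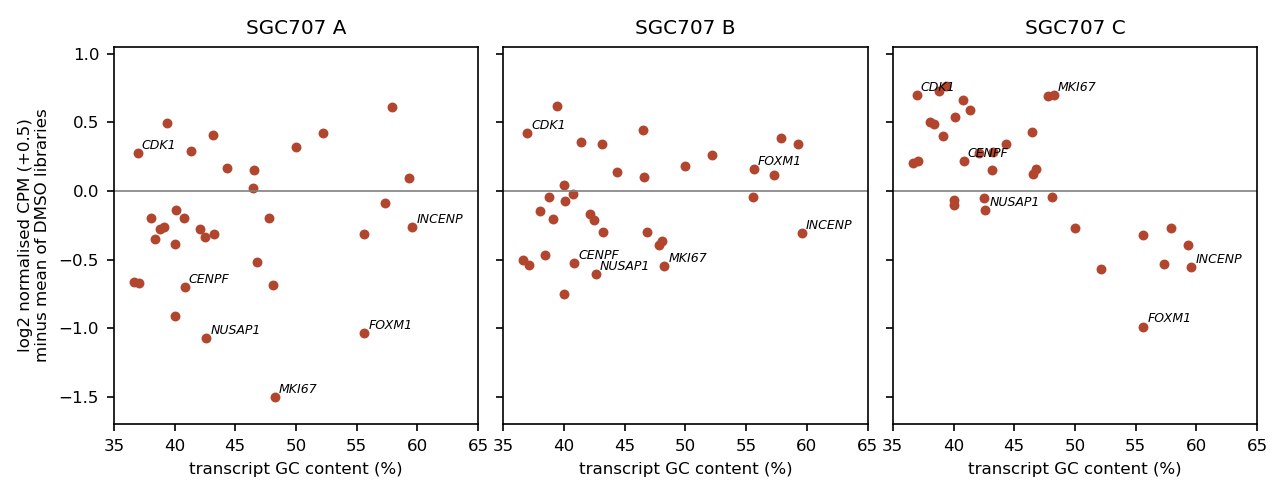
Log2 normalised CPM of each member relative to the mean of the DMSO libraries against transcript GC content (%), with 1 panel for each SGC707 library and 1 point for each of 34 genes. The points slope down in SGC707 C (Pearson -0.73) and scatter without that slope in SGC707 A and B (0.13 and 0.26).

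Without SGC707 C, 5 members were lower with SGC707 and passed in edgeR, and 0 were higher. They were ASPM (log2 fold change -0.61, adjusted p = 0.0277 in edgeR), CENPF (-0.62, adjusted p = 0.0278), HMMR (-0.59, adjusted p = 0.0293), NUSAP1 (-0.83, adjusted p = 0.0309) and PRC1 (-0.52, adjusted p = 0.0424). That is 14.7% of members, where 5.53% of the 12392 genes tested in that fit were called lower, 3.73% higher and 9.26% in either direction. The median of the members was then -0.18 against 0.02 over all genes, with 22 negative (64.7% against 47.9%). ANLN (-0.86) and TPX2 (-0.41) stood just outside the threshold, with adjusted p of 0.0524 and 0.0520 in edgeR. MAD2L1 (0.54, adjusted p = 0.0789 in edgeR) and CDK1 (0.34, adjusted p = 0.121 in edgeR) kept positive values. That fit rests on the 2 SGC707 libraries closest to each other, and SGC707 C carries the same treatment label as they do. Over 12151 tested nuclear genes its log2 fold changes had Spearman correlations of 0.26 with GC content and -0.22 with length. Over the 34 members these were 0.13 and -0.44. The part of GC content and length in these calls was not tested.

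**Figure D5:**
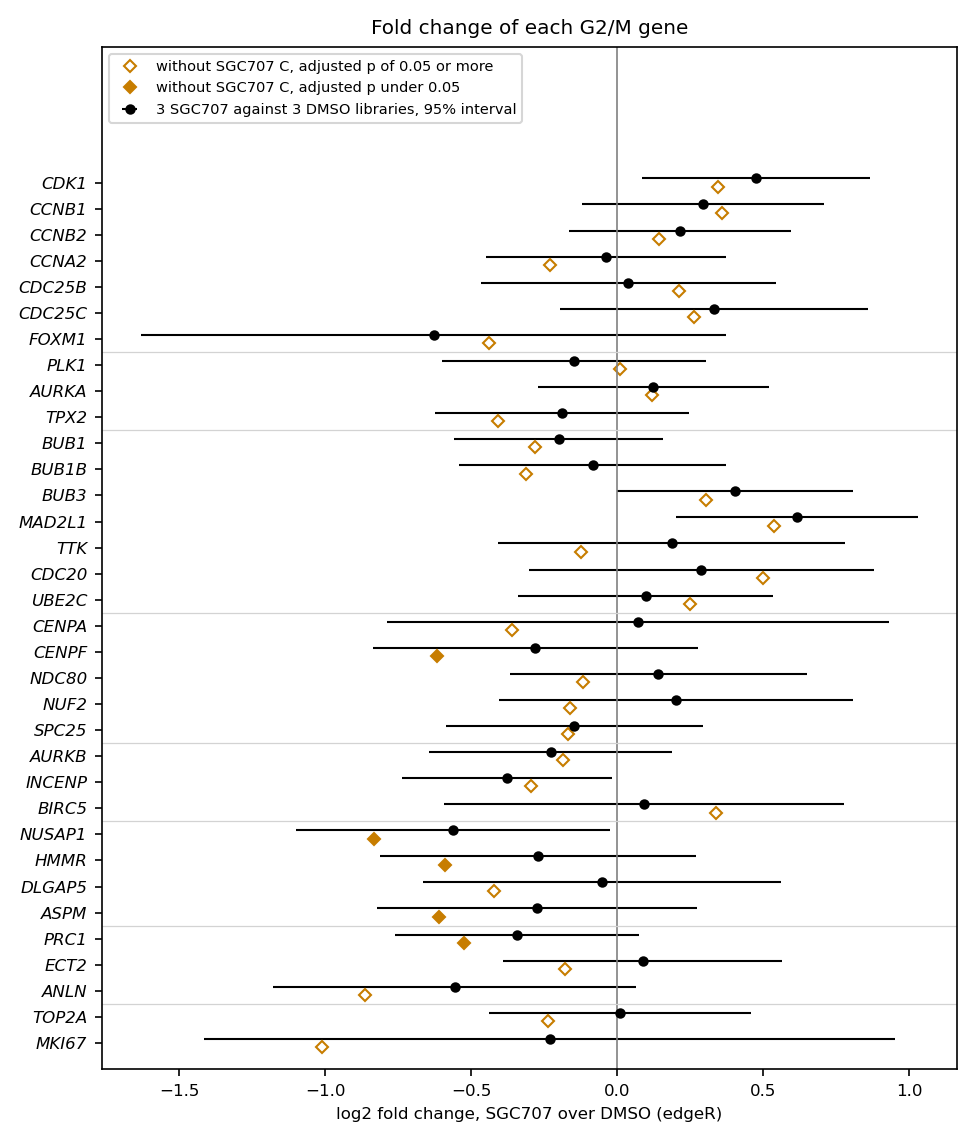
Log2 fold change of each member, SGC707 over DMSO, from edgeR: circles with 95% intervals use all 6 libraries, and diamonds leave out SGC707 C (filled where the adjusted p is under 0.05). ASPM, CENPF, HMMR, NUSAP1 and PRC1 have filled diamonds, and 30 of the 34 intervals include 0.

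After a correction for GC content and length, 0 members passed in edgeR (0.508% of tested genes did, 0.0738% higher and 0.435% lower), and the smallest adjusted p was 0.0747, that of MAD2L1 (log2 fold change 0.62). At an unadjusted p under 0.05 there were 8 members, or 23.5% against 23.9% of tested genes (11.1% higher and 12.9% lower). CDK1, BUB3 and MAD2L1 were higher, and NUSAP1, HMMR, ASPM, PRC1 and ANLN lower. The members' median log2 fold change after this correction was -0.10 against 0.005 over all tested genes, with 20 of 34 members negative. Of the 12196 tested genes 6013 were negative. With scaling by library totals alone, 9 members passed with SGC707 higher and 0 lower (26.5%, against 21.1% of tested genes called higher and 0.254% lower), and all 34 log2 fold changes were positive. Under that scaling all tested genes had a median of 0.69, and the members' median of 0.62 lay below it. It divides by totals that include the mitochondrially encoded counts, which differed between the groups.

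The 158 other mitotic genes in 7 lists gave 0 calls in edgeR on all libraries, with 82 positive and 76 negative log2 fold changes, a median of 0.03 and 13 genes (8 higher, 5 lower) at an unadjusted p under 0.05, or 8.23% against 12.8% of all tested genes. Among 38 kinetochore, centromere and cohesion-protection genes 21 were positive (median 0.04), and SKA3 (-0.60) and MAD1L1 (-0.50), which encode a microtubule coupler and a checkpoint protein, had edgeR adjusted p of 0.374 and 0.380. Among 21 APC/C genes 15 were positive (median 0.11), with the APC/C subunit gene ANAPC16 at 0.60 and the ubiquitin-conjugating enzyme gene UBE2D1 at -0.60 (adjusted p = 0.260 and 0.304 in edgeR). Among 21 condensin and cohesin genes 9 were positive (median -0.07), with CDCA5, encoding sororin, at 0.57 and the cohesin gene SMC1A at 0.38 (adjusted p = 0.326 and 0.421 in edgeR).

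Among 15 genes of the DREAM, MuvB and MYB machinery 6 were positive (median -0.10). MYBL2, encoding B-MYB, stood at 138.6, 146.1 and 120.3 normalised CPM with SGC707, against 209.3, 232.7 and 172.9 with DMSO. The groups did not overlap, and the log2 fold change was -0.60 (SE 0.16, adjusted p = 0.247 in edgeR). The histone chaperone gene RBBP4, a MuvB subunit, had 0.29 (adjusted p = 0.4999 in edgeR). Among 25 genes of the G2 checkpoint and the brakes on mitotic entry 19 were positive (median 0.24), with the damage kinase genes ATM at 0.57 and CHEK2 at 0.56 (adjusted p = 0.262 and 0.374 in edgeR).

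Among 15 midbody and cytokinesis genes 3 were positive (median -0.12). MYH9, a non-muscle myosin heavy chain gene, had -0.55 (adjusted p = 0.236 in edgeR) and was the 1 gene of the 158 that DESeq2 called, against 2.39% of all genes (log2 fold change -0.57, DESeq2 adjusted p = 0.0490), and VPS4B, of the abscission machinery, had 0.42 (adjusted p = 0.321 in edgeR). Among 23 centrosome and spindle pole genes 9 were positive (median -0.07), with the augmin subunit genes HAUS1 at 0.48 and HAUS8 at 0.52 (adjusted p = 0.309 and 0.446 in edgeR). Without SGC707 C, 17 of the 158 genes passed in edgeR, 4 higher and 13 lower. That is 10.8% in either direction, near the 9.26% of all genes called in that fit (3.73% higher and 5.53% lower). CENPE, the kinetochore motor, was among the lower (-0.92, adjusted p = 0.0272 in edgeR).

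The sources used here do not say how the authors treated shared reads. In GENCODE release 29 an annotated gene on the opposite strand overlaps 14 members, a gene on the same strand overlaps 7, and 8 members have a pseudogene named after them. CDK1, CCNB1, TPX2 and INCENP are among the 8 members with none of these.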

How the data were processed

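RNA sequencing measured transcript levels in 6 libraries of SH-SY5Y cells, 3 per treatment, grouped by the titles in the labels. The authors deposited unscaled read counts, as whole numbers, by gene symbol. HISAT2, StringTie and GRCh38 are named per the submitters' processing notes, and the sources used here give neither their roles and versions nor the annotation and strand setting.

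The test was that of edgeR 4.0.16 in R 4.3.3 (filterByExpr, TMM scaling, robust quasi-likelihood fit, no covariate), with Benjamini-Hochberg adjustment over all 12196 tested genes and a threshold of 0.05. Normalised CPM uses the TMM factors, a standard error is the size of a log2 fold change over the root of its F statistic, and intervals are 95%. GENCODE release 29 (GRCh38) gave gene positions and, for the longest protein-coding transcript, length and GC content, matched directly for 19271 of 19610 rows. Promoter sequences came from RefSeq (GRCh38.p14). The edgeR procedure was run on counts simulated with known fold changes. Apart from library size, libraries of a group had the same expected levels there, with no dependence on GC content. The simulation therefore does not test the procedure on libraries such as SGC707 C. Figures used matplotlib 3.10.9.

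The members, the 7 lists of other mitotic genes and the alternatives were chosen with earlier results of these data known. Genes given in every library are CDK1, CCNB1, MKI67, TOP2A and those with the smallest p in each role group (1 in groups of up to 3 members, otherwise 2). From each list of other genes the 2 with the smallest p are named. FOXM1 and the other genes given beyond this rule were chosen after their values were seen. Other settings tried were DESeq2 1.42.0, voom of limma 3.58.1, scaling by RLE or by library totals, no low-count filter, a stricter one (a mean count of 50, and 1 CPM in at least 3 libraries), the replicate letter as a block, each library left out, a lowess correction (span 0.3) for GC content and length, removal of mitochondrially encoded genes and a threshold of 0.01. Single-library ratios used a pseudocount of 0.5 in normalised CPM.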

Additional observations from a re-analysis of the deposited data

How the results depend on the processing

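The count of genes past the threshold was 3 and moved to 2605 with library totals only, 6 with no filter on low counts, 288 with DESeq2, 62 after the GC and length correction, 0 with the replicate block and 0 at an adjusted p under 0.01. It ranged from 0 to 1147 with 1 library left out. The count of G2/M genes past the threshold was 0 and moved to 9 with library totals only, and it ranged from 0 to 5 with 1 library left out (5 without SGC707 C, 0 without each other library). The same scaling by totals gave 0 negative members, 18 members whose groups do not overlap, 44 other mitotic genes past the threshold and a members' median of 0.62, and DESeq2 gave 1 other mitotic gene. With 1 library left out, the members' median ranged from -0.18 to 0.05, negative members from 15 to 22 and other mitotic genes past the threshold from 0 to 17.

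With library totals only, the log2 fold change turned positive for MKI67 (0.39), BUB1 (0.47), BUB1B (0.56), AURKB (0.44), PLK1 (0.55), CENPF (0.35), INCENP (0.32), TPX2 (0.45), NUSAP1 (0.0781), HMMR (0.36), CCNA2 (0.60), FOXM1 (0.14), PRC1 (0.30), ANLN (0.11), DLGAP5 (0.58), SPC25 (0.53) and ASPM (0.35). TOP2A turned to -0.0005 with RLE size factors, -0.0258 with limma-voom, -0.0234 with the replicate block and -0.0208 after the GC and length correction, CENPA to -0.001 with limma-voom and -0.056 after the correction, and UBE2C to -0.10 after the correction. With 1 library left out the sign changed for 14 members, within -0.24 to 0.13 for TOP2A, -1.01 to 0.15 for MKI67, -0.31 to 0.0224 for BUB1B, -0.30 to 0.0104 for PLK1, -0.36 to 0.32 for CENPA, -0.026 to 0.25 for UBE2C, -0.14 to 0.21 for CDC25B, -0.11 to 0.34 for BIRC5, -0.23 to 0.0719 for CCNA2, -0.42 to 0.12 for DLGAP5, -0.12 to 0.35 for TTK, -0.16 to 0.40 for NUF2, -0.12 to 0.27 for NDC80 and -0.18 to 0.22 for ECT2. No label says whether the replicate letters pair libraries, and they were treated as not pairing. Deviations from the group means correlated at 0.08, -0.02 and 0.10 between equally lettered libraries. Between differently lettered ones they correlated at -0.11 to 0.10. With 3 libraries per group, and SGC707 C apart from the others, these values cannot decide whether the letters pair. The replicate block called 0 members, as did the main fit. The cause of these changes was not tested. With 3 libraries per treatment, values of the members with the lowest counts and of those that vary most between libraries (CENPA, FOXM1, MKI67) have wide intervals.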
